A study of Homo sapiens with 6 samples.

Results

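Gangliosides are glycosphingolipids of the cell surface that carry sialic acid, and their sugar chains are built in the Golgi by a short series of glycosyltransferases. The genes described here encode 10 of these enzymes, namely *UGCG*, *B4GALT5*, *B4GALT6*, *ST3GAL5*, *ST8SIA1*, *B4GALNT1*, *B3GALT4*, *ST3GAL1*, *ST3GAL2* and *ST8SIA5*. They were chosen by name, for the step that each enzyme catalyses, and found through their Ensembl identifiers among 67060 human genes in the count table, of which 24500 were tested. Counts were compared between 2 groups of SH-SY5Y cells, a human neuroblastoma line that the labels describe as neuronal progenitors. Cells of 1 group were infected with Ad CMV 3xFlag-*Esrrg*, an adenovirus in which the CMV promoter drives the mouse coding sequence of *Esrrg* behind a 3xFlag tag. *Esrrg* encodes estrogen-related receptor gamma (ERRγ), an orphan nuclear receptor. Cells of the control group were infected with Ad CMV GFP, so both groups carried an adenovirus with the CMV promoter, and RNA was collected after 24 h. The comparison asks which transcripts differ when ERRγ is raised in this cell line, and each group holds 3 libraries, with the replicate numbers 1, 3 and 4 in the control group and 2, 3 and 4 in the other. All libraries came from 1 cell line, and the labels do not say that they were separate cultures, so p-values measure the spread between these libraries, which may be technical.

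In ganglioside synthesis, UGCG places glucose on ceramide, and B4GALT5 or B4GALT6 adds galactose to give lactosylceramide. ST3GAL5 then adds sialic acid to give GM3, the precursor of the other gangliosides, and ST8SIA1 adds another to give GD3. B4GALNT1 acts on both, turning GM3 into GM2 and GD3 into GD2, after which B3GALT4, the sialyltransferases ST3GAL1 and ST3GAL2, and ST8SIA5 build the longer species that are abundant in adult brain. GD2 is the surface antigen for which neuroblastoma is best known, since it is the target of antibody therapy, and ST8SIA1 and B4GALNT1 are the enzymes that make it. A transcript level says nothing direct about the amount of an enzyme or a lipid.

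The depth, as reads counted on genes, was 24969759 to 29700980 in the control libraries and 26513620 to 40859666 in those with *Esrrg*. Levels are given as counts per 1000000 counted reads after TMM scaling (normalized CPM), as mean ± SD over the 3 libraries. The human gene *ESRRG* was counted 2357, 2796 and 2876 times in Ad CMV GFP replicates 1, 3 and 4 and 15228, 25994 and 26497 times in Ad CMV 3xFlag-*Esrrg* replicates 2, 3 and 4 (log2 fold change 3.02, standard error 0.14, adjusted p = 6.3e-07), where reads of the mouse sequence may be included. Ad CMV 3xFlag-*Esrrg* replicate 2 stood apart from the other 2 libraries of its group. The counting assigned 46.6% of its reads to no feature, against 31.6% and 29.5%, while the Ad CMV GFP libraries had 51.3% to 52.2%. Where these reads lie was not tested. Of 10 markers of adrenergic neuroblastoma, 8 were tested, with 2 higher and 2 lower, and their summed level was 705 to 767 CPM with Ad CMV GFP and 533 to 709 with Ad CMV 3xFlag-*Esrrg*. Tyrosine hydroxylase (*TH*) and *CHGA*, both defining markers, were listed at 0 in every library, and 90.2% of the 31-base words of *CHGA*, but 0.0% of those of *TH*, also occur in alternate contigs of the genome. The 10 mesenchymal neuroblastoma markers summed to 1710 to 1760 CPM and 1800 to 2050 CPM (2 higher, 1 lower). Of 6 epithelial markers 4 were tested and *KRT18* was higher, with summed levels of 35.5 to 42.0 and 60.4 to 94.8 CPM and *KRT5* at 0. The 5 glial markers summed to 9.83 to 10.3 and 6.57 to 7.89 CPM (3 tested, 1 lower, *MOG* at 0), and the 5 immune markers to 0.603 to 0.808 and 0.898 to 1.01 CPM (1 tested, none called, *CD3E* at 0). The part of the marker differences in the enzyme values was not tested. Values with the fraction of reads assigned to no feature as a covariate are given for most enzymes and for some of the other genes. In bulk RNA a change in the make-up of the cells and a change in RNA per cell cannot be told apart.

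With Ad CMV 3xFlag-*Esrrg*, 4 of the 9 enzymes that could be tested were higher and 1 was lower than with Ad CMV GFP. *B4GALT5*, *ST8SIA1*, *B4GALNT1* and *ST8SIA5* were higher, with log2 fold changes of 0.72, 0.73, 0.69 and 3.52. *B4GALT6*, the other lactosylceramide synthase gene, was lower (-0.85). *ST8SIA5* passed the filter on low counts only through the Ad CMV 3xFlag-*Esrrg* libraries, where it was high. *UGCG*, *ST3GAL5*, *ST3GAL1* and *ST3GAL2* were not called, with log2 fold changes of 0.45, 0.15, 0.54 and 0.50. A call needed a Benjamini-Hochberg adjusted p below 0.05 from edgeR's quasi-likelihood test, adjusted over all tested genes, and a change of at least 1.5-fold. By this rule 17.3% of all tested genes were higher and 16.8% were lower, and among the 13746 protein-coding genes tested 25.9% were higher and 12.4% were lower. By the adjusted p alone, 7 enzymes were higher and 1 was lower, where 24.3% and 23.5% of all tested genes were. Among protein-coding genes 37.6% and 22.4% were. The tenth gene, *B3GALT4*, was listed at 0 in every library.

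**Figure D1:**
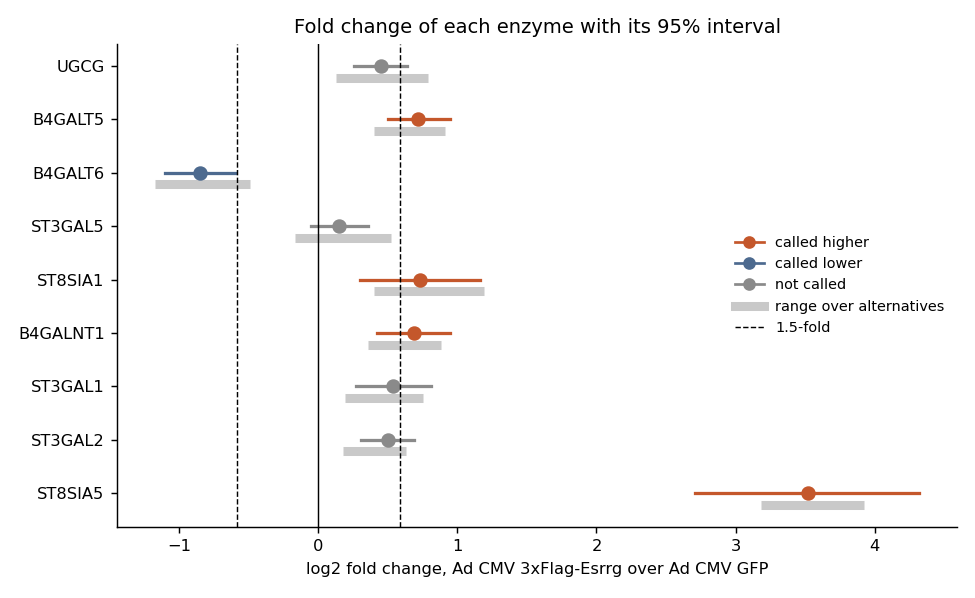
Log2 fold change of each tested enzyme, Ad CMV 3xFlag-*Esrrg* over Ad CMV GFP (3 libraries each), with its 95% interval from edgeR. Grey bars span the values under the alternative settings, and dashed lines mark 1.5-fold. *ST8SIA5* stands at 3.52, *B4GALT6* at -0.85 is the one enzyme on the negative side, and the other 7 lie between 0.15 and 0.73.

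The median log2 fold change of the 9 enzymes was 0.54, beside -0.10 for all tested genes and 0.12 for tested protein-coding genes. For all 9 enzymes the libraries of the 2 groups did not overlap in normalized CPM, which held for 58.1% of all tested genes. For all 9, too, Ad CMV 3xFlag-*Esrrg* replicate 2 was the library of its group nearest to the Ad CMV GFP libraries. Without that library the median of the enzymes was 0.75 and 7 were called higher, with *UGCG*, *ST3GAL1* and *ST3GAL2* added to the 4. The share called higher among all tested genes was then 22.9% in place of 17.3%, and among protein-coding genes 34.4% in place of 25.9%. The scaling moved every value. With library size as the only scaling the median of all tested genes was -0.42 and that of the enzymes 0.21. Only *ST8SIA5* was then called higher, where 8.98% of all tested genes and 13.5% of protein-coding genes were. *B4GALT6* was still called lower. Of all calls, 50.7% were higher with TMM scaling, 22.5% with library size only and 58.1% with RLE size factors. When the fraction of reads assigned to no feature was added as a covariate, again only *ST8SIA5* was called higher and *B4GALT6* lower. In that fit 7.24% and 5.4% of all tested genes were, and 9.48% and 6.93% of protein-coding genes. The fraction was 51.3% to 52.2% with Ad CMV GFP and 29.5% to 46.6% with Ad CMV 3xFlag-*Esrrg*. It thus did not overlap between the groups, so this fit cannot fully tell the covariate from the group. A call lost with it is not evidence of no difference.

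**Figure D2:**
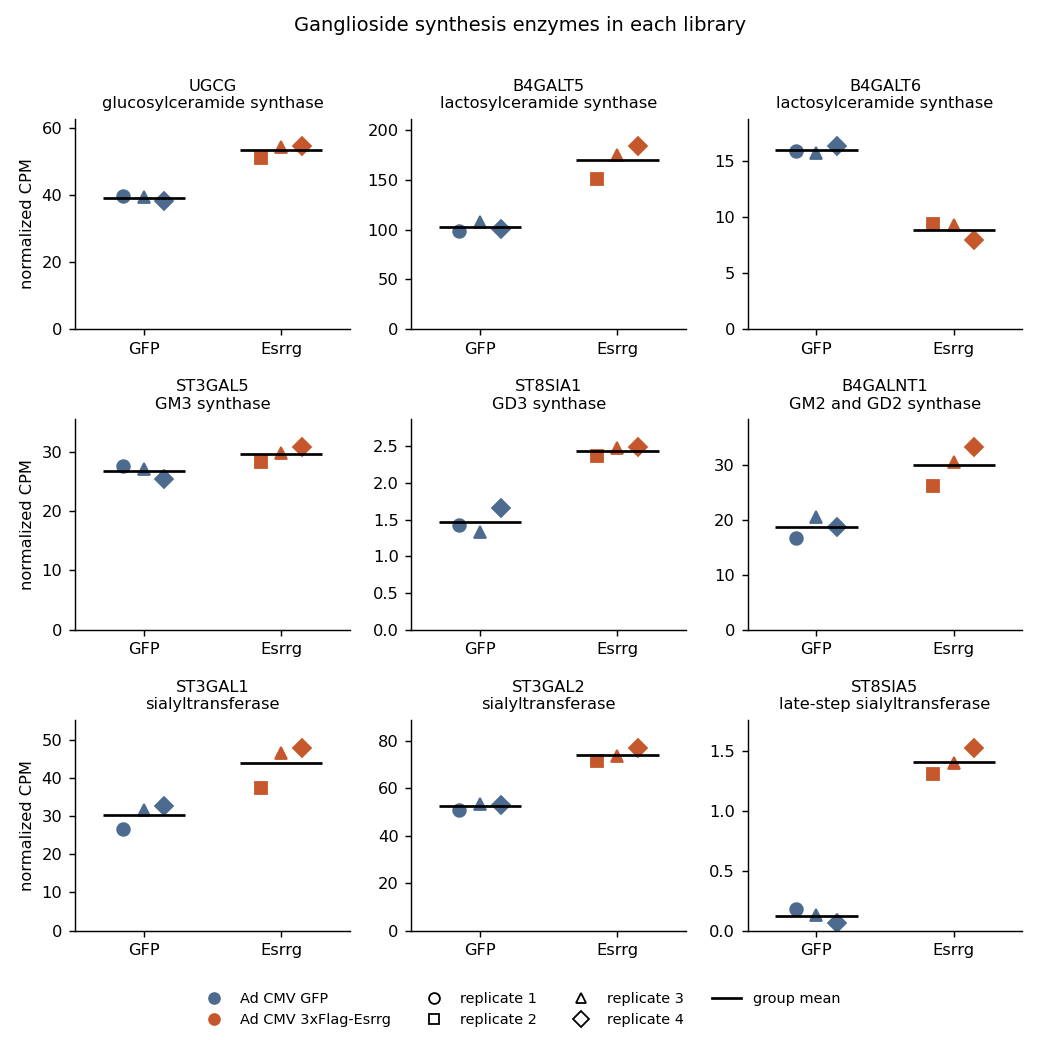
Normalized CPM of the 9 tested enzymes in each of the 6 libraries (linear axes from 0, 1 panel per gene, symbols for replicate numbers, bars for group means). In every panel the 3 Ad CMV 3xFlag-*Esrrg* libraries lie to 1 side of the 3 Ad CMV GFP libraries, and replicate 2 is the one closest to them.

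Promoter sequences were taken from RefSeq (GRCh38.p14), which matched 4 of the 10 genes, *UGCG*, *B4GALT5*, *ST3GAL5* with 5 start sites and *ST8SIA1*. Each of the 8 windows runs from 250 bases before to 50 bases after a start site. ERRγ is known to bind an ERR response element, and the letters TCAAGGTCA were searched on both strands, together with the core AAGGTCA that they contain. Neither was present in the 8 windows, and 0.353% and 3.92% of all 35116 promoters of the table held them. At shares this low, 8 windows would seldom hold a match, so the absence sets these genes apart from no others. Only exact matches were counted. The GC box GGGCGG, a motif of promoters with CpG islands, was present in 6 of the 8 windows and in all 4 genes, beside 45.0% of all promoters. Windows of *ST3GAL5* overlap each other, so some GC boxes are counted in more than 1 window. The windows of 2 enzymes that were called higher are shown because they belong to different steps of the pathway, and give the 250 bases before the start site on the strand of the gene. Capitals mark GC boxes on either strand.
*B4GALT5*, chr20:49713879-49714128, minus strand: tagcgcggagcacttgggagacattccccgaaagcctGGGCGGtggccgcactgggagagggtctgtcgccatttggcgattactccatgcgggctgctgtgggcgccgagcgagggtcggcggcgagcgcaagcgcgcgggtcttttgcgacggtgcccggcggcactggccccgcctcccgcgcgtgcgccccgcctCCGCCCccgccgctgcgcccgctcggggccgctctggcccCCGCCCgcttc
*ST8SIA1*, chr12:22334708-22334957, minus strand: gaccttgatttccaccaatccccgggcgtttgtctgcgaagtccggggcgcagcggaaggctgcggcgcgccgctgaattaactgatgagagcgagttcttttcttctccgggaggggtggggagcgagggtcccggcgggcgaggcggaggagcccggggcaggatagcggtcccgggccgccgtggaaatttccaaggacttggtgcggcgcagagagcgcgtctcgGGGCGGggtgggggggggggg
The *B4GALT5* stretch holds 3 GC boxes and 75.6% G and C, and that of *ST8SIA1* 1 GC box and 69.2%, where the median of all promoters was 58.0%. In a wider window, from 1000 bases before to 50 after, which was added after the first search, the longer element was again not present before any of the 4 genes. It was present in 1.47% of the 35116 windows. The core was present before 2 of the 5 start sites of *ST3GAL5*, at chr2:85855060-85855066 and 891 and 895 bases before them, in gtcagggtccAAGGTCAtccttttgca, where capitals mark the core. It was present in 15.6% of all windows. These matches describe the letters only.

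*UGCG* (ENSG00000148154, chr9:111896814-111935369, plus strand, GRCh38), glucosylceramide synthase, catalyses the step that commits ceramide to glucosylceramide and to nearly all gangliosides. It was counted 1122, 1216 and 1262 times with Ad CMV GFP and 1365, 1833 and 1861 times with Ad CMV 3xFlag-*Esrrg*, or 39.1 ± 0.861 and 53.4 ± 2.01 normalized CPM (n = 3 each). The groups did not overlap, but the 1.37-fold difference was under the cutoff (log2 fold change 0.45, standard error 0.09, 95% interval 0.26 to 0.64, adjusted p = 0.0018). It was called higher without Ad CMV 3xFlag-*Esrrg* replicate 2 (0.59) and after correction of each library for GC content and exon length (0.67, adjusted p = 0.023). With library size as the only scaling the value was 0.13 (adjusted p = 0.22), and with the covariate 0.36 (adjusted p = 0.014).

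The 2 genes for lactosylceramide synthases moved in opposite directions. *B4GALT5* (ENSG00000158470, chr20:49632945-49713878, minus strand) was counted 2795, 3354 and 3353 times with Ad CMV GFP and 4038, 5894 and 6276 times with Ad CMV 3xFlag-*Esrrg*. Its normalized level was 99.1, 108 and 101 CPM in the Ad CMV GFP libraries and 151, 175 and 184 CPM in the others, so that the groups lay further apart than the libraries of either group lay from each other. The change was 1.65-fold (log2 0.72, standard error 0.10, 95% interval 0.50 to 0.95, adjusted p = 0.00032). *B4GALT6* (ENSG00000118276, chr18:31622246-31685836, minus strand) was counted 449, 485 and 538 times with Ad CMV GFP and 250, 312 and 270 times with Ad CMV 3xFlag-*Esrrg*, although 2 of the latter libraries were the deepest of all. Its level fell from 16.0 ± 0.287 to 8.85 ± 0.801 CPM (log2 fold change -0.85, standard error 0.11, 95% interval -1.10 to -0.60, adjusted p = 0.00021). *B4GALT5* was not called with library size as the only scaling (0.40) or with the covariate (0.46), and *B4GALT6* was not called after the GC and length correction (-0.57, adjusted p = 0.093).

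The sialyltransferases that make GM3 and GD3 are encoded by *ST3GAL5* and *ST8SIA1*. *ST3GAL5* (ENSG00000115525, chr2:85837120-85905199, minus strand) was counted 775, 837 and 840 times with Ad CMV GFP and 756, 1002 and 1051 times with Ad CMV 3xFlag-*Esrrg*. Its normalized level was 27.5, 27.1 and 25.4 CPM against 28.3, 29.8 and 30.8 CPM. The gap between the groups was small beside the range within each, and no change was called (log2 fold change 0.15, standard error 0.09, 95% interval -0.05 to 0.36, adjusted p = 0.19), the interval leaving room for a rise of up to 0.36. With library size as the only scaling the sign turned (-0.17, adjusted p = 0.14), and with the covariate the value was 0.05 (adjusted p = 0.81). *ST8SIA1* (ENSG00000111728, chr12:22063773-22437041, minus strand) had low counts of 40, 41 and 55 with Ad CMV GFP and 63, 83 and 85 with Ad CMV 3xFlag-*Esrrg*. Its level was 1.47 ± 0.173 CPM and 2.44 ± 0.0728 CPM, and the highest control library at 1.66 CPM lay below the lowest of the other group at 2.36 CPM. The change was 1.66-fold (log2 0.73, standard error 0.19, 95% interval 0.30 to 1.16, adjusted p = 0.01). The call was lost without Ad CMV GFP replicate 3 (0.66, adjusted p = 0.052), with library size as the only scaling (0.40, adjusted p = 0.13) and with the covariate (0.65, adjusted p = 0.18).

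*B4GALNT1* (ENSG00000135454, chr12:57623409-57633239, minus strand) encodes the N-acetylgalactosaminyltransferase that makes GM2 and GD2. It was counted 470, 634 and 622 times with Ad CMV GFP and 701, 1031 and 1134 times with Ad CMV 3xFlag-*Esrrg*. In normalized CPM the control libraries held 16.7, 20.5 and 18.8 and the others 26.2, 30.6 and 33.3, with no overlap. The change was 1.61-fold (log2 0.69, standard error 0.12, 95% interval 0.42 to 0.95, adjusted p = 0.001), so that both genes of GD2 synthesis were called higher, with values of 0.69 and 0.73. *B4GALNT1* was not called after the GC and length correction (0.37, adjusted p = 0.24), in a fit of protein-coding genes alone (0.55), with library size as the only scaling (0.36) or with the covariate (0.38). Its longest annotated transcript holds 58.3% G and C, the highest share of the 9 tested enzymes. Of its merged exon length, 27.1% overlaps genes on the opposite strand. Since the strand setting of the counting is not given in the sources used here, reads of these genes cannot be told apart with certainty. The overlapping genes *SLC26A10P*, with 4 to 18 counts per library, and ENSG00000287908, with 0 to 8, had few counts in every library.

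*B3GALT4* (ENSG00000235863, chr6:33277123-33284832, plus strand), whose enzyme adds galactose to make GM1 and GD1b, was listed at 0 in all 6 libraries and was not tested. All words of 31 bases in its transcript (100%) also occur in the 261 alternate contigs of GRCh38. The genes next to it were at or near 0 too, with 0 to 2 counts per library for *RPS18*, a ribosomal protein gene that every cell uses, and 0 for *VPS52*. The zeros are therefore not read as a level of *B3GALT4*.

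*ST3GAL1* (ENSG00000008513, chromosome 8) and *ST3GAL2* (ENSG00000157350, chr16:70375977-70439237, minus strand) encode sialyltransferases that cap the terminal galactose, making GD1a and GT1b among others, and they act on glycoproteins as well. *ST3GAL1* was counted 754, 984 and 1082 times with Ad CMV GFP and 1006, 1572 and 1640 times with Ad CMV 3xFlag-*Esrrg*, or 30.4 ± 3.21 and 44.2 ± 5.69 CPM. The lowest library in each group was the shallowest, and the groups did not overlap (log2 fold change 0.54, standard error 0.12, 95% interval 0.27 to 0.81, adjusted p = 0.0044). *ST3GAL2* was counted 1436, 1643 and 1751 times and 1903, 2469 and 2622 times, or 52.3 ± 1.20 and 73.8 ± 2.91 CPM (log2 fold change 0.50, standard error 0.09, 95% interval 0.31 to 0.69, adjusted p = 0.00098). Both passed the adjusted p and missed the 1.5-fold cutoff, at 1.45-fold and 1.41-fold. Without Ad CMV 3xFlag-*Esrrg* replicate 2 both were called higher (0.75 and 0.63). *ST3GAL1* was also called with RLE size factors or DESeq2 (0.62 each) and without Ad CMV GFP replicate 4 (0.60). With library size as the only scaling the values were 0.21 and 0.18 (adjusted p = 0.089 and 0.1). After the GC and length correction they were 0.39 and 0.27 (adjusted p = 0.27 and 0.31). With the covariate *ST3GAL1* had 0.19 (adjusted p = 0.31) and *ST3GAL2* 0.41 (adjusted p = 0.0033).

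*ST8SIA5* (ENSG00000101638, chr18:46667821-46759257, minus strand) encodes a sialyltransferase that adds further sialic acids to make species such as GQ1b. It had the largest fold change of the 9 tested enzymes and the lowest level per length in both groups. It was counted 5, 4 and 2 times with Ad CMV GFP and 35, 47 and 52 times with Ad CMV 3xFlag-*Esrrg*. No control library came near the lowest of the other group. The fitted log2 fold change was 3.52 (standard error 0.36, 95% interval 2.71 to 4.32, adjusted p = 6.4e-05). From the summed counts, 11 and 134, the ratio of normalized levels was 11.9 (exact 95% interval 6.44 to 24.4, counting error only). It passed the filter on low counts only through the Ad CMV 3xFlag-*Esrrg* libraries, so its presence among the tested genes rests on the group where it was high. *ST8SIA5* was called higher in all 17 alternatives that gave a value, with log2 fold changes from 3.18 to 3.92. These alternatives rest on the same counts and are not separate support. Even so, its level with Ad CMV 3xFlag-*Esrrg* was only 1.41 ± 0.109 CPM. The divergent transcript *ST8SIA5-DT*, on the opposite strand and overlapping 4.3% of its exon length, was counted 101, 120 and 145 times and 106, 75 and 87 times and was not called (log2 fold change -0.45, adjusted p = 0.12).

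Levels were compared between genes as normalized CPM per kilobase of merged exon length. With Ad CMV GFP the order ran from *B4GALT5* (21.8 ± 1.03 CPM per kb) through *UGCG* (8.56 ± 0.188), *ST3GAL2* (5.37 ± 0.123), *ST3GAL1* (3.46 ± 0.365), *B4GALT6* (3.09 ± 0.0556), *B4GALNT1* (2.36 ± 0.243) and *ST3GAL5* (1.63 ± 0.0685) to *ST8SIA1* (0.101 ± 0.012) and *ST8SIA5* (0.00781 ± 0.00375). Neighbours in this order did not overlap, except for *ST3GAL1* and *B4GALT6*. GD3 synthase, *ST8SIA1*, was thus far below every enzyme of the earlier steps on this scale. With Ad CMV 3xFlag-*Esrrg* the first 4 places were the same, at 36.0 ± 3.63, 11.7 ± 0.44, 7.58 ± 0.299 and 5.02 ± 0.648 CPM per kb. *B4GALNT1* came next (3.81 ± 0.452), followed by *ST3GAL5* (1.82 ± 0.0791) and *B4GALT6* (1.71 ± 0.155), which overlapped, and the last 2 places were again *ST8SIA1* (0.168 ± 0.00503) and *ST8SIA5* (0.0900 ± 0.00696). The order depends on the length used. Per kilobase of the longest annotated transcript, chosen after seeing the data, *ST3GAL5* stood at 4.31 ± 0.181 with Ad CMV GFP, in place 5 and above *B4GALT6* (3.41 ± 0.0615) and *B4GALNT1* (3.34 ± 0.344), which overlapped. In that group *ST3GAL5* also overlapped with *ST3GAL1* (4.38 ± 0.462). With Ad CMV 3xFlag-*Esrrg* the order was the same on both scales, with *B4GALT6* in place 7. On this scale *ST3GAL5* (4.79 ± 0.209) no longer overlapped with *B4GALT6* (1.89 ± 0.172). However, *ST3GAL1* (6.35 ± 0.819) here overlapped with *B4GALNT1* (5.38 ± 0.639), and *B4GALNT1* with *ST3GAL5*.

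**Figure D3:**
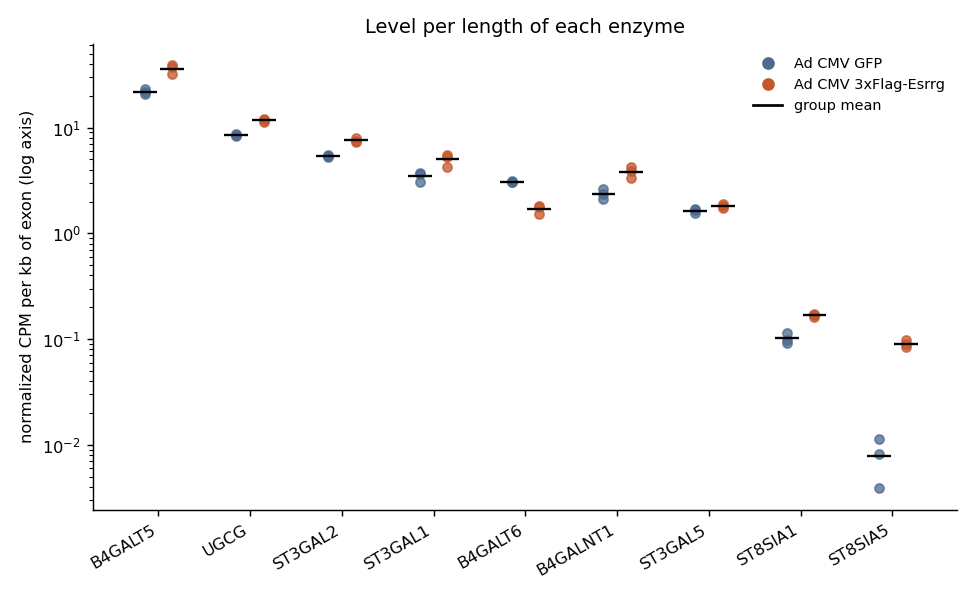
Normalized CPM per kb of exon for the 9 tested enzymes (log axis), ordered by their mean with Ad CMV GFP, with 3 libraries per group and bars for means. *B4GALT5* is highest in both groups (21.8 and 36.0), *B4GALT6* is the one gene with lower points with Ad CMV 3xFlag-*Esrrg*, and *ST8SIA1* and *ST8SIA5* lie far below the rest.

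Summed over the 9 enzymes, the level per length was 45.0, 48.0 and 46.2 CPM per kb with Ad CMV GFP and 61.9, 69.6 and 72.3 with Ad CMV 3xFlag-*Esrrg*. The groups did not overlap and the difference was 1.46-fold (exact permutation test, two-sided, p = 0.1, the smallest that 3 libraries against 3 allow). *B4GALT5* made up 47.0% of the sum with Ad CMV GFP and 53.0% with Ad CMV 3xFlag-*Esrrg*. With library size as the only scaling the difference was 1.17-fold.

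Ratios of 2 enzymes within a library do not depend on the scaling between libraries, and the length used sets their level but not their difference between the groups. Of 6 planned ratios, 5 could be formed, since *B3GALT4* was listed at 0. The ratio of *B4GALT5* to *B4GALT6*, the 2 lactosylceramide synthases, was 6.81, 7.56 and 6.82 with Ad CMV GFP and 17.7, 20.7 and 25.4 with Ad CMV 3xFlag-*Esrrg*, in counts per kb. Its difference between the groups was the largest of the 5 ratios (log2 difference 1.57, exact permutation test, two-sided, p = 0.1, adjusted over the 5 ratios 0.167). No ratio could pass a threshold of 0.05 in this design. After the GC and length correction the log2 difference was 1.25, and again no library of 1 group reached the other.

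**Figure D4:**
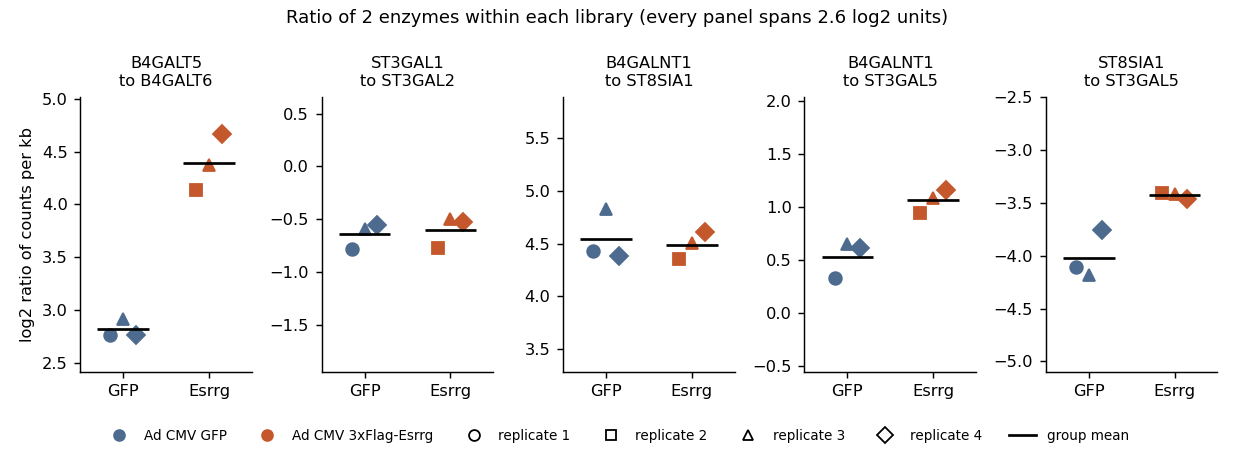
Log2 ratio of counts per kb for 5 pairs of enzymes within each library (every panel spans the same number of log2 units, symbols for replicate numbers, bars for group means). *B4GALT5* to *B4GALT6* has group means of 2.82 with Ad CMV GFP and 4.39 with Ad CMV 3xFlag-*Esrrg*, while *ST3GAL1* to *ST3GAL2* and *B4GALNT1* to *ST8SIA1* overlap between the groups.

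The ratio of the 2 GD2 enzymes overlapped between the groups. *B4GALNT1* to *ST8SIA1* was 21.6, 28.4 and 20.8 with Ad CMV GFP and 20.4, 22.8 and 24.5 with Ad CMV 3xFlag-*Esrrg* (log2 difference -0.05, exact permutation p = 0.8, adjusted 0.8). After the GC and length correction, however, the log2 difference of *B4GALNT1* to *ST8SIA1* was -0.73 (exact permutation p = 0.1). *ST8SIA1* to *ST3GAL5* was 0.0581, 0.0551 and 0.0737 against 0.0938, 0.0932 and 0.091 (log2 difference 0.58, exact permutation p = 0.1, adjusted 0.167), and *B4GALNT1* to *ST3GAL5* was 1.25, 1.57 and 1.53 against 1.92, 2.13 and 2.23 (0.53, exact permutation p = 0.1, adjusted 0.167). The groups did not overlap in either ratio. After the GC and length correction *B4GALNT1* to *ST3GAL5* no longer separated them (-0.02, exact permutation p = 1). *ST3GAL1* to *ST3GAL2* was 0.582, 0.664 and 0.685 against 0.586, 0.706 and 0.694 and did not separate the groups (log2 difference 0.04, exact permutation p = 0.5, adjusted 0.625).

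The protein-coding genes whose log2 CPM followed that of *B4GALNT1* most closely over the 6 libraries, after each was centred on its mean, were *PDXK*, *SLC1A5* and *TMEM164*, with root mean square differences of 0.02, 0.021 and 0.025. For *ST8SIA1*, which has more counting noise, they were *DLEC1*, *FHIP1A* and *TRMU*, with 0.046, 0.067 and 0.069. These 6 genes had log2 fold changes from 0.70 to 0.81. The 6 points share the group difference and the order of the libraries, so the likeness is a description.

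Genes that supply, branch off from or degrade gangliosides and other glycosphingolipids were read from 5 lists. They held 69 genes in all, of which 61 passed the filter on low counts. In the *Esrrg* libraries, 14 of them (23%) were called higher and 8 (13.1%) lower, beside 25.9% and 12.4% of tested protein-coding genes and 17.3% and 16.8% of all tested genes. These shares are close to those of protein-coding genes. Without Ad CMV 3xFlag-*Esrrg* replicate 2 the counts were 20 and 6 (32.3% and 9.68%, beside 34.4% and 11.9% of protein-coding genes). Scaling by library size alone gave 11 and 19 (18.0% and 31.1%, beside 13.5% and 25.8%). The covariate gave 10 and 5 (16.4% and 8.2%, beside 9.48% and 6.93%).

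Ceramide, the lipid on which UGCG acts, is made by genes that were called in both directions (15 of 16 tested, 2 higher, 3 lower, median log2 fold change 0.08). *CERS2*, the ceramide synthase for very long acyl chains, was counted 2122, 2819 and 2800 times with Ad CMV GFP and 4125, 6758 and 7784 times with Ad CMV 3xFlag-*Esrrg* (log2 fold change 1.22, standard error 0.14, adjusted p = 0.00012). *DEGS1*, the desaturase that completes ceramide, was also higher (0.82, adjusted p = 0.0012). *DEGS1* was not called with library size as the only scaling (0.48) or with the covariate (0.22, adjusted p = 0.15). *SPTSSB*, a small subunit of serine palmitoyltransferase, fell from 119, 102 and 134 counts to 11, 11 and 10 (-3.49, standard error 0.24, adjusted p = 7.1e-06). *SPTLC3*, a catalytic subunit of the same enzyme with 4 to 24 counts per library, and the ceramide synthase *CERS4* were lower as well (-1.46 and -0.63). *SPTLC3* was not called after the GC and length correction (-1.19) or without Ad CMV GFP replicate 4 or Ad CMV 3xFlag-*Esrrg* replicate 3 (-1.22 and -1.38, adjusted p = 0.07 and 0.052). Nor was it called with the covariate (-2.2, adjusted p = 0.08). *CERS4* was not called without Ad CMV 3xFlag-*Esrrg* replicate 2 (-0.36) or with RLE size factors or DESeq2 (-0.55 each).

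Of 12 genes that supply nucleotide sugars, 3 were higher and none was lower (median 0.26), beside 25.9% and 12.4% of tested protein-coding genes. A list this short would often hold few lower genes at that share. *SLC35A2*, the Golgi transporter of UDP-galactose, had 31.9 ± 2.37 CPM with Ad CMV GFP and 72.9 ± 12.5 CPM with Ad CMV 3xFlag-*Esrrg* (log2 fold change 1.19, standard error 0.13, adjusted p = 8.5e-05). *NANS*, a sialic acid synthase, had 13.0 ± 1.38 and 24.3 ± 3.60 CPM (0.90, adjusted p = 0.0004). *NANS* was not called with library size as the only scaling (0.57) or with the covariate (0.5). The groups did not overlap for either gene.

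Among 15 genes for the breakdown of gangliosides and other glycosphingolipids, 12 were tested, with 4 higher and 1 lower (median 0.38). The sialidase genes *NEU1*, *NEU2* and *NEU4* were listed at 0 (98.8% of the words of *NEU1* occur in alternate contigs). *GLA*, lysosomal alpha-galactosidase, and *GBA2*, the glucosylceramidase outside the lysosome, were higher (1.25 and 1.12, adjusted p = 0.00019 and 0.00012). *GM2A*, the activator protein that presents GM2 for cleavage, was counted 1228, 1488 and 1565 times with Ad CMV GFP and 488, 674 and 770 times with Ad CMV 3xFlag-*Esrrg* (-1.19, standard error 0.11, adjusted p = 3e-05). It was called lower in all 18 alternatives.

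In the other branches of glycosphingolipid synthesis 9 of 11 genes were tested, with 2 higher and 2 lower (median -0.32). Both higher genes belong to the galactosylceramide branch, which starts from ceramide without UGCG. *GAL3ST1*, the sulfotransferase that makes sulfatide, was counted 8, 18 and 13 times with Ad CMV GFP and 89, 96 and 170 times with Ad CMV 3xFlag-*Esrrg* (log2 fold change 3.13, standard error 0.32, adjusted p = 5.9e-05). *UGT8*, galactosylceramide synthase, was counted 82, 93 and 90 times and 143, 208 and 182 times (0.97, adjusted p = 0.00062). *FUT9*, a fucosyltransferase, and *GBGT1*, of the globoside branch, were lower (-1.12 and -0.69). The call of *GBGT1* held in 9 of 18 alternatives and was lost with DESeq2 (-0.62, adjusted p = 0.052) and when Ad CMV GFP replicate 1 or 4 or any of the 3 *Esrrg* libraries was left out (-0.73 to -0.51). *FUT9* was not called after the GC and length correction (-0.70) or with the covariate (-1.11, adjusted p = 0.16).

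Of 15 other sialyltransferase genes 13 were tested, with 3 higher and 2 lower (median -0.08). *ST6GALNAC4* and *ST3GAL4* were higher by 1.79 and 1.39 (adjusted p = 4.8e-05 and 0.0001), and *ST8SIA4*, a polysialyltransferase of the neural cell adhesion molecule, by 0.95. *ST8SIA6* had 86, 77 and 63 counts with Ad CMV GFP and 5, 1 and 4 with Ad CMV 3xFlag-*Esrrg* (-4.49, standard error 0.42, adjusted p = 3.6e-05). *ST8SIA3* was lower by a smaller margin (-0.76) and was not called after the GC and length correction (-0.50). Within the ST8SIA family, *ST8SIA5* at 3.52 and *ST8SIA6* at -4.49 thus stood at opposite ends. Each had few counts in 1 group and passed the filter on low counts only through the other.

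**Figure D5:**
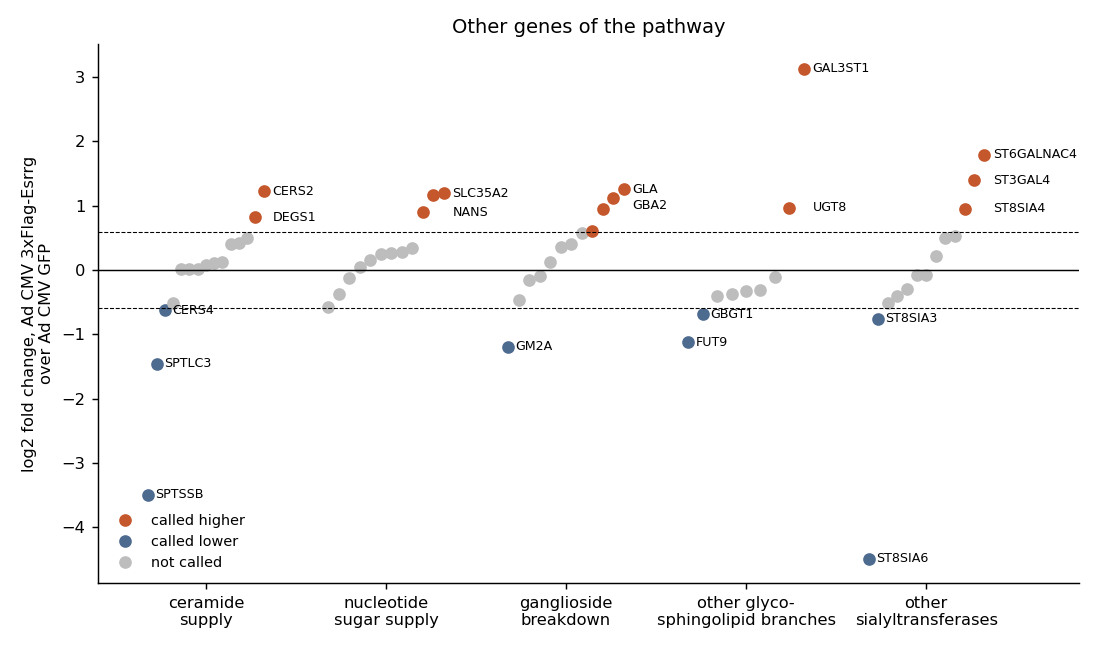
Log2 fold change, Ad CMV 3xFlag-*Esrrg* over Ad CMV GFP, of the 61 tested genes of 5 lists around ganglioside synthesis, sorted within each list, with dashed lines at 1.5-fold and some of the called genes named. Values run from -4.49 for *ST8SIA6* to 3.13 for *GAL3ST1*. Nucleotide sugar supply, with 12 genes, is the list with no gene called lower, where 12.4% of tested protein-coding genes were.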

How the data were processed

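The authors deposited raw counts per human gene from HTSeq-count in 1 table of 6 libraries (67060 genes and 5 summary entries). The submitters' processing notes name Trim Galore 0.6.7, STAR 2.7.9a, HTSeq 0.11.3, CASAVA, DESeq2 and GRCh38. Libraries were directional and depleted of ribosomal RNA. The annotation release and the strand setting are not given in the sources used here. Reads assigned to no feature (29.5% to 52.2%) stayed out of library sizes. Groups and replicate numbers came from the sample labels.

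Identifiers were matched without version to GENCODE 44 on GRCh38 (60419, or 90.1%). This gave symbols, coordinates, merged exon length and the GC content of the longest transcript. Counts were fitted with edgeR 4.0.16 in R 4.3.3 (filterByExpr, TMM, quasi-likelihood test, all 6 libraries, no covariate). Standard errors were obtained by dividing the size of the log2 fold change by the root of its F statistic, and intervals use the t quantile at the total degrees of freedom. Log values use a prior count of 2. Ratios and the summed level were compared by exact permutation over libraries. All libraries of a group differed by more than sampling noise (chi-square per degree of freedom 3.51 to 64.7).

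Named were the 10 enzymes, *ESRRG*, up to 3 called genes per direction with the largest changes in each of 5 lists, and the 3 genes most like *B4GALNT1* and *ST8SIA1*. *RPS18*, *VPS52* and the genes overlapping the enzymes were added for their position after their values were seen. A few of these genes are left unnamed here. The enzymes and lists were chosen with earlier results of these data known. Alternatives were DESeq2 1.42.0, RLE factors, library size only, other count filters, protein-coding genes only, other fold cutoffs, a replicate block, a smooth correction for GC content and exon length (mgcv 1.9.3, values for 98.9% of tested genes), both together, the fraction of unassigned reads as a covariate, and each library left out. The 1000-base promoter window and the longest-transcript length were added after seeing the data. The fit was tested on simulated data. Tables were made with pandas 2.3.3, numpy 2.4.6 and Python 3.11.15, exact tests with scipy 1.17.1, and plots with matplotlib 3.10.9.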

Additional observations from a re-analysis of the deposited data

How the results depend on the processing

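The main fit called 4 enzymes higher and 1 lower (17.3% and 16.8% of all tested genes). Library size as the only scaling gave 1 and 1 (8.98% and 30.9% of all tested genes). No fold cutoff gave 7 and 1 (24.3% and 23.5%), and a 2-fold cutoff 1 and 0 (7.97% and 8.09%). The fraction of unassigned reads as a covariate gave 1 and 1 (7.24% and 5.4%). The GC and length correction gave 4 higher and 0 lower, both alone (12.6% and 9.79% of all tested genes) and with the replicate block (20.3% and 13.3%). Leaving out 1 library gave 3 higher (without Ad CMV GFP replicate 3) to 7 higher (without Ad CMV 3xFlag-*Esrrg* replicate 2). In these 2 fits 16.6% and 22.9% of all tested genes were higher. Each such fit gave 1 enzyme lower, where 11.4% to 20.3% of all tested genes were. Over all genes, 8351 calls became 3934 with a 2-fold cutoff, 5495 after correction for GC content and length, and 3096 with the covariate. A fit of protein-coding genes only gave 5282 calls among fewer tested genes. It called 20.5% of them higher and 18.0% lower, beside 17.3% and 16.8% of all tested genes in the main fit. Genes of the wider lists called lower went from 8 to 19 with library size only, which also took the summed level from 1.46-fold to 1.17-fold and *ST3GAL5* to -0.17. The log2 difference of *B4GALNT1* to *ST3GAL5* was -0.02 after the GC and length correction. Leaving out single libraries, that of *ST3GAL1* to *ST3GAL2* ran from -0.03 to 0.12 and that of *B4GALNT1* to *ST8SIA1* from -0.14 to 0.09. Lengths of the longest transcripts gave a summed level 1.44-fold higher. The causes were not tested. Of the values of single enzymes under these alternatives, 133 kept direction and side of the threshold, 16 lost a call, 11 gained one and 1 changed sign. A minimum of 10 counts in every library left out *ST8SIA5*.

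Replicate numbers 3 and 4 occur in both groups, but the labels do not say that they pair, and deviations of same-numbered libraries correlated at 0.075 and -0.000102. The replicate block called the same 5 enzymes and 10435 genes in all, against 8351 (19.4% of all tested genes higher and 23.2% lower). The low counts of *ST8SIA1* and *ST8SIA5* limit their precision, and *B3GALT4* could not be measured in this table.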
